A study of Drosophila melanogaster with 18 samples.

Results

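The proteasome subunit genes were taken as the rows of the head count table whose deposited symbol begins with Prosalpha, Prosbeta, Rpn or Rpt and a digit, which gave 44 of 15406 genes. Of these, 31 were body-wide subunits, namely 7 of the alpha ring, 7 of the beta ring, 5 Rpt ATPases and 12 Rpn subunits without ATPase activity. The other 13 carried the suffix T or R, which marks gene copies: 12 are called testis paralogues here, with T in 4 and R in 8, and 1 is Prosalpha1R, a copy of Prosalpha1. The table gives the symbol Prosalpha1 to both of the latter genes, and they were told apart by gene identifier. The rule itself uses names alone and no measured value, but it was chosen with earlier results of these data known. The genes Rpt1, Rpn12R, Rpn13R and Prosbeta4R2 were not analysed here.

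The proteasome is the protease that degrades proteins tagged with ubiquitin chains in the cytosol and nucleus of all eukaryotic cells. Its core particle is a stack of rings of alpha and beta subunits, of which Prosbeta1, Prosbeta2 and Prosbeta5 hold the proteolytic sites. A regulatory particle caps the core: its ring of Rpt ATPases unfolds the substrate, and its Rpn subunits bind the ubiquitin chain (Rpn1, Rpn10, Rpn13), remove it (Rpn11) or form the scaffold. In Drosophila, many duplicated subunit genes are expressed mainly in the male germ line.

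Poly(A) RNA was sequenced from heads of flies sampled 1 h after eclosion, with 3 libraries of the white Dahomey stock (wDah, wild type at miR-210) and 3 of miR-210Δ, a null allele made with Cas9 and guideRNAs on both sides of the gene. The labels give the strain wDah for both groups, and the stocks carried the endosymbiont Wolbachia after backcrossing. Once-mated females were used according to the growth protocol. In the paper this is a general rule that allows exceptions, and its account of the mRNA sequencing names neither sex nor mating state. No source names separate flies or pools behind the libraries of a group, so the p-values reflect the spread among these libraries alone, part of which may be technical. The 12 small RNA libraries of the series hold no subunit counts.

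The libraries held 17992976 to 21315973 gene counts, and each of the 30 body-wide subunits tested had between 2755 and 17282 counts in every library. Levels are given as CPM, counts per 1000000 of the effective library size. In the whole table, 956 of 9470 genes tested (10.1%) passed an adjusted p of 0.05 in either direction, 376 higher (3.97%) and 580 lower (6.12%) in miR-210Δ heads. All 10 photoreceptor markers were among the lower genes, and their summed level was 22707 to 24881 CPM in wDah and 12336 to 12680 CPM in miR-210Δ. In such bulk RNA, fewer cells of a type and less RNA per cell cannot be told apart. The third wDah library stood apart: 10 muscle markers summed to 30144 CPM there and to 20224 to 22789 CPM in the other 5, and 17 testis markers to 30.2 CPM against 5.21 to 10.8 CPM. Precursor transcripts of miR-210 had 0 counts in all 6 libraries, so these data do not check the deletion.

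The body-wide subunits were all highly expressed and lay close together. Over the 6 libraries, their level per kilobase of merged exons ranged from 149 CPM per kilobase for Prosalpha6 to 389 CPM per kilobase for Rpt6, a 2.61-fold range around a median of 243. Among the 9288 tested genes with annotated exons, the median was 11.9 CPM per kilobase and the 10th and 90th percentiles were 1.34 and 78.3, a 58.5-fold range. Prosalpha6 thus lay above 94.4% and Rpt6 above 98.2% of tested genes on this scale.

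Levels per kilobase differed somewhat by the position of the subunit in the particle, but the classes also differed in length. Every tested core subunit had fewer exon bases than every Rpt ATPase. The Rpn subunits, except Rpn11 and Rpn12, were also longer than every tested core subunit. The part of length in the class medians and in the ratio of regulatory to core subunits was not tested. The median over genes was 230 CPM per kilobase in the alpha ring, 209.6 in the beta ring, 317 for the Rpt ATPases and 262 for the Rpn subunits. Prosalpha2 (274) was the highest alpha subunit. In the beta ring, the range ran from Prosbeta3 (172) to Prosbeta5 (248), which carries the chymotrypsin-like site. Rpt5 (255) was the lowest and Rpt6 (389) the highest ATPase, so that the lowest ATPase exceeded the median of each ring of the core. Of the Rpn subunits, the ubiquitin receptor Rpn13 (172) was lowest and Rpn6 (345), which in yeast clamps the lid to the core, was highest. The ratio of the median regulatory subunit to the median core subunit was 1.27, 1.2 and 1.2 in the wDah libraries and 1.19, 1.21 and 1.22 in the miR-210Δ libraries, which overlap.

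**Figure D1:**
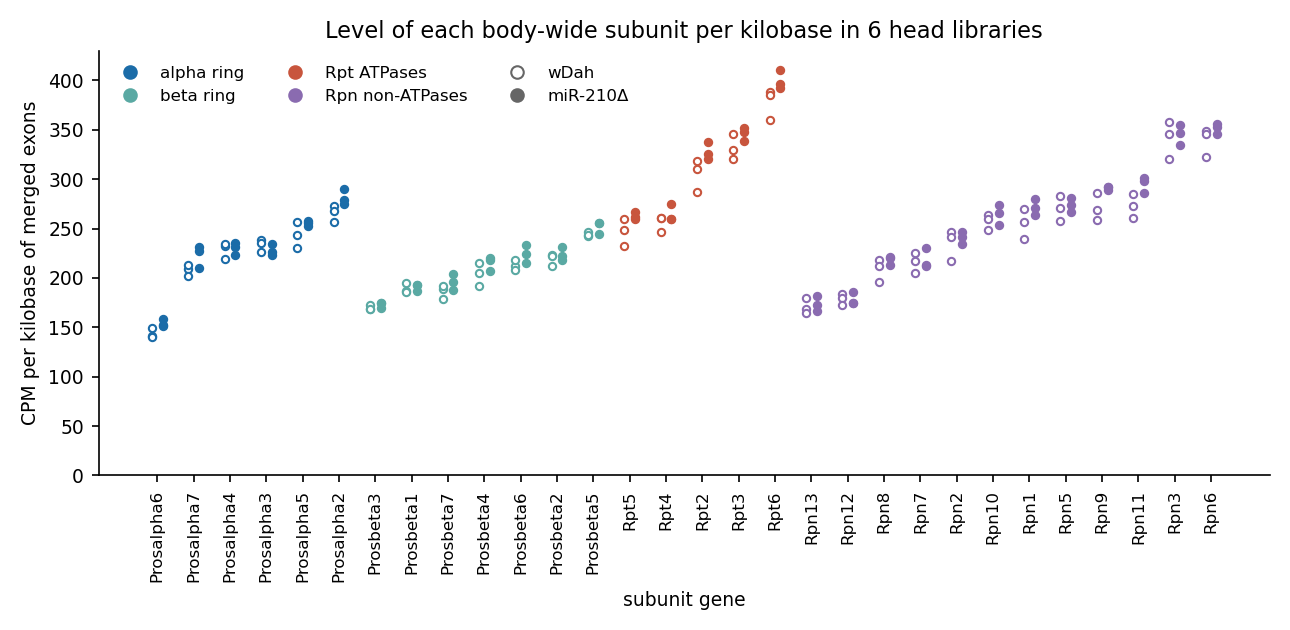
Level of the 30 tested body-wide subunits in CPM per kilobase of merged exons (vertical axis, linear from 0), by gene and class, with 1 point per library (open, wDah; filled, miR-210Δ). Subunits span 149 to 389 CPM per kilobase, and in most the open and filled points lie in the same range.

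Prosalpha1 is the exception, and its values are no measure of its expression. It had 0, 2 and 1 counts in the wDah and 2, 1 and 2 in the miR-210Δ libraries, and Prosalpha1R had 2, 0 and 1 and then 2, 2 and 3. The coding sequences of these neighbours on chromosome arm 2R are identical over all 732 bases. Of the windows of 150 bases, the read length, 97.9% in the Prosalpha1 and 100% in the Prosalpha1R transcript occur in the other gene too, and reads with several positions had been removed by the authors. No other member shared a window of this length with another gene. Exons of 15 members overlap those of genes on the opposite strand, over 0.1% to 13.0% of their bases, and the strand setting of the counting is not given in the sources used here.

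None of the 30 tested body-wide subunits passed the main test between miR-210Δ and wDah heads. With edgeR's quasi-likelihood test and Benjamini-Hochberg adjustment over all 9470 genes, 0 were called higher and 0 lower, with DESeq2 and limma-voom 0 as well. With library totals in place of TMM scaling, 2 were called higher, Rpn11 (adjusted p = 0.0387) and Prosalpha6 (adjusted p = 0.0309), and the median log2 fold change was 0.11, with that of all genes at 0.06. With TMM scaling, the lowest adjusted p was 0.136 (Rpn11). At an unadjusted p under 0.05, 5 were higher (Rpn11, Prosalpha6, Rpn9, Prosalpha7 and Rpt2), against 10.3% of all genes, and 0 were lower. The log2 fold changes ran from -0.03 to 0.11 with standard errors of 0.04 to 0.05. The 95% intervals of the 30 genes lay between 0.923-fold and 1.155-fold at their outer bounds. In simulated counts of genes of all levels the procedure recovered 4% of changes of 0.15 in log2 and 40% of changes of 0.25; the rate for genes with as many counts as the subunits was not measured.

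The direction of these small differences was shared. The log2 fold change was above 0 in 28 of 30 subunits, against 50.4% of all genes tested, and its median was 0.06, against 0.00 over all genes. In 7 subunits all 3 miR-210Δ libraries lay above all 3 wDah libraries, which was so in 13.2% of all genes. Subunits of 1 library share its preparation and are not replicates of the comparison. Without wDah replicate 3, the median was 0.02 and 21 of 30 were above 0.

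**Figure D2:**
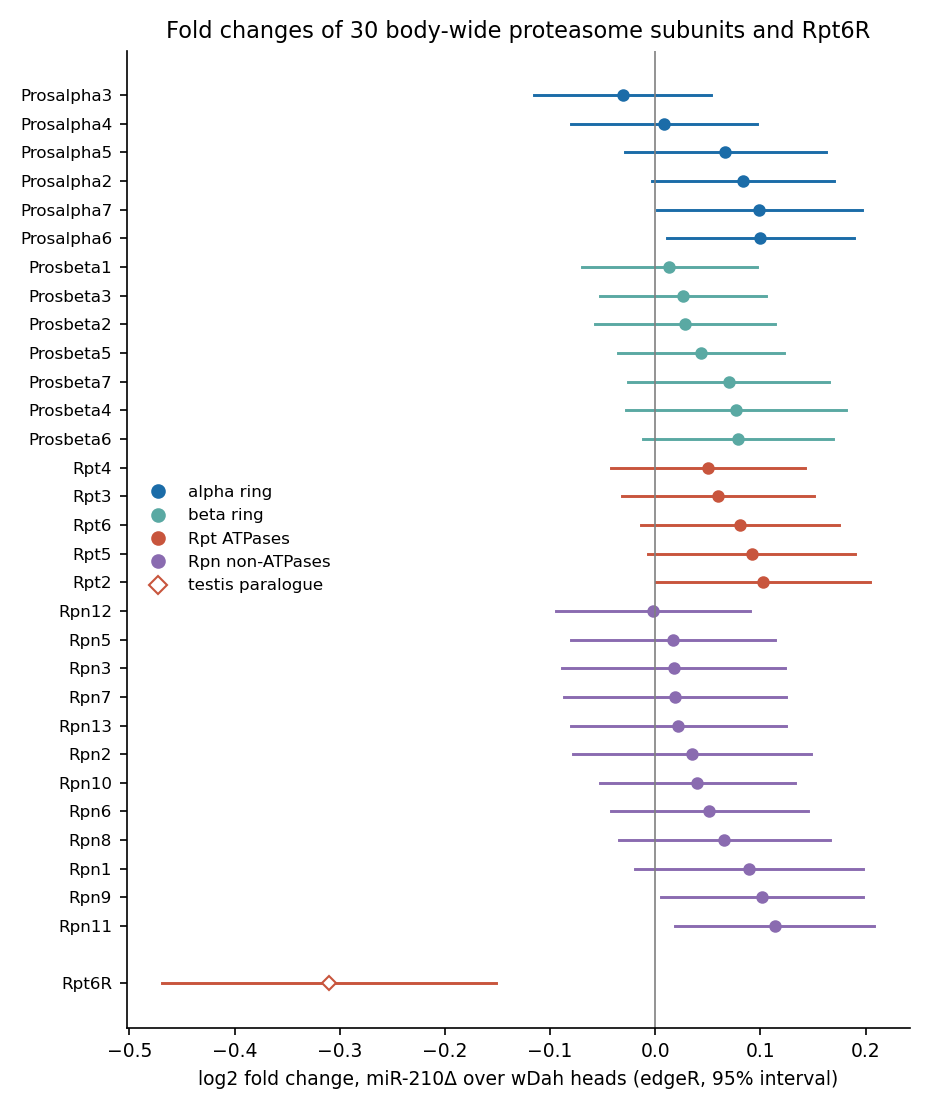
Log2 fold change of miR-210Δ over wDah heads (horizontal axis) for the 30 tested body-wide subunits by class and for Rpt6R; points are edgeR estimates from 3 against 3 libraries and bars are 95% intervals. Body-wide subunits lie between -0.03 and 0.11, and Rpt6R lies at -0.31.

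In the alpha ring, which forms the gated entry to the core, the median log2 fold change was 0.07. Prosalpha6 had the largest, at 152, 160.0 and 149.5 CPM in wDah and 162, 163 and 169 CPM in miR-210Δ heads. Its groups did not overlap, its log2 fold change being 0.10 ± 0.04 (standard error; adjusted p = 0.162, edgeR). Prosalpha2 also had every miR-210Δ library (257, 267 and 253 CPM) above every wDah library (251, 246 and 236 CPM), with a log2 fold change of 0.08. Prosalpha3 had the lowest log2 fold change of all body-wide subunits, -0.03, from 232, 229 and 219.7 CPM to 220.5, 228 and 217.5 CPM, and its groups overlapped.

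In the beta ring, every one of the 7 log2 fold changes was above 0 and none of the 7 separated the groups. Prosbeta6 had the largest, with 200.5, 205.5 and 196 CPM in wDah and 212, 220.5 and 203 CPM in miR-210Δ heads (log2 fold change 0.08, standard error 0.04, adjusted p = 0.290, edgeR). The subunits with proteolytic sites had overlapping groups. Prosbeta1, with the caspase-like site, had 166, 159 and 158 CPM in wDah and 164, 165 and 159 CPM in miR-210Δ heads. Prosbeta2, with the trypsin-like site, had 231, 230.2 and 219.7 CPM and then 239, 230.1 and 225 CPM. Prosbeta5 had 281, 277 and 278 CPM in wDah and 291, 291 and 279 CPM in miR-210Δ heads. Their log2 fold changes were 0.01, 0.03 and 0.04, and the 95% intervals reached from -0.07 to 0.12 over these 3 genes.

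Of the Rpt ATPases, Rpt2, Rpt5 and Rpt6 each had all miR-210Δ libraries above all wDah libraries, which was so in 13.2% of all genes tested. In each of these genes, wDah replicate 3 had the lowest of the wDah values. Rpt2 was measured at 517, 504 and 467 CPM in wDah and 529.5, 549 and 520.1 CPM in miR-210Δ heads (log2 fold change 0.10, standard error 0.05, adjusted p = 0.211, edgeR). Rpt5 was at 422, 404 and 379 CPM and then 426, 435 and 423 CPM. Rpt6, the counterpart of Rpt6R, was at 545, 541 and 505 CPM and then 551, 576.5 and 556 CPM, with a log2 fold change of 0.08 (adjusted p = 0.30). The smallest log2 fold change in the ring, that of Rpt4, was 0.05, with overlapping groups.

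Among the Rpn subunits the median log2 fold change was 0.04. Rpn11, the metalloprotease that cuts the ubiquitin chain from the substrate, had the largest of the 30 tested body-wide subunits, with 344, 329.6 and 315 CPM in wDah and 359.8, 364 and 345 CPM in miR-210Δ heads. Its highest wDah library was just under its lowest miR-210Δ library, and the log2 fold change was 0.11 (standard error 0.04, 95% interval 0.02 to 0.21, adjusted p = 0.136, edgeR). Without wDah replicate 3 it was 0.08 (adjusted p = 0.214). Rpn9 behaved alike, with 480.3, 451 and 434 CPM and then 489.6, 485 and 490.2 CPM, but its exons share 7.4% of their bases with CG10365 on the other strand. The ubiquitin receptors Rpn1, Rpn10 and Rpn13 had log2 fold changes of 0.09, 0.04 and 0.02. Rpn12, a lid subunit, had 183, 179 and 171 CPM and then 174, 185 and 174 CPM, with a log2 fold change of 0.00 (adjusted p = 0.983).

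The shared direction rested in large part on a single library. In wDah replicate 3, all 30 subunits lay below their own mean over the 6 libraries, 28 had their lowest value, and the median deviation was -0.09 on the log2 scale. In wDah replicates 1 and 2 the median deviation was 0.02 and -0.01, and in the miR-210Δ libraries 0.03, 0.05 and -0.02, so the range of the remaining libraries overlapped between genotypes. The median deviation over all genes lay between -0.00 and 0.01 in every library. The same wDah library was the one with more muscle and testis RNA (Act79B, an actin of tubular muscle, was at 3360 CPM there and at 726 to 1279 CPM elsewhere), and the part of these RNAs in the lower subunit levels was not tested. The summed level of the 30 subunits was 11049, 10789 and 10172 CPM in wDah and 11110, 11344 and 10832 CPM in miR-210Δ heads, and the ranges of the groups overlap.

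**Figure D3:**
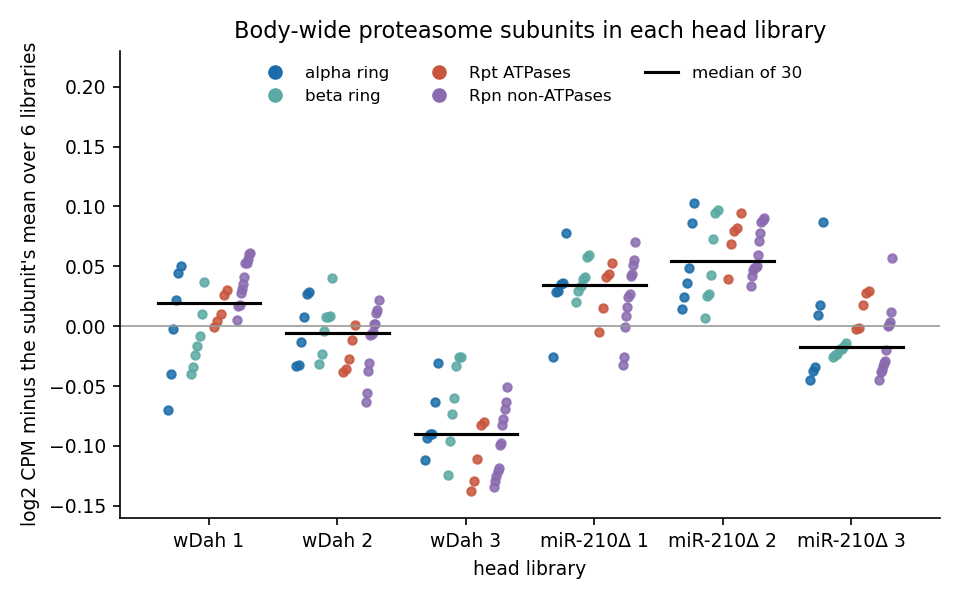
Log2 CPM of each of the 30 tested body-wide subunits minus its own mean over the 6 libraries (vertical axis), by library and coloured by class, with the median of the 30 as a black line. All points of wDah replicate 3 lie below 0, with a median of -0.09, while the other 5 medians lie between -0.02 and 0.05.

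Rpt6R, the paralogue of the ATPase Rpt6 on another chromosome, was the single member that passed the test, and it was lower in miR-210Δ heads. It was at 21.6, 21.5 and 19.5 CPM in wDah and 17.0, 17.6 and 15.9 CPM in miR-210Δ heads, from 405, 450 and 359 and then 355, 340 and 291 counts. Every miR-210Δ library lay below every wDah library. Its log2 fold change was -0.31 (standard error 0.07, 95% interval -0.47 to -0.15, adjusted p = 0.0191, edgeR), which is 1 of 32 members called lower, against 6.12% of all genes. DESeq2 gave an adjusted p of 0.0427 and limma-voom 0.0209. Over the 15 alternatives the log2 fold change lay between -0.36 and -0.25, and the call held in 9. Without wDah replicate 1 or 2 or miR-210Δ replicate 1 or 3, the adjusted p was 0.0654, 0.0786, 0.0689 or 0.0763, with library totals in place of TMM scaling it was 0.0553, and for a test against a fold of at least 1.2 it was 1. Without wDah replicate 3 it was 0.00433.

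Rpt6R contributed 3.80%, 3.82% and 3.71% of the reads of the Rpt6 and Rpt6R pair in wDah and 2.98%, 2.96% and 2.79% in miR-210Δ heads, or 3.78% ± 0.0586 and 2.91% ± 0.104 (SD, n = 3). This share does not depend on library scaling. The two-sided exact permutation test on it gave p = 0.10, the smallest value that 3 against 3 libraries allow. Rpt6R was singled out because it was called in these same counts, so this p-value adds no separate support. The share also moves with Rpt6, which was higher in every miR-210Δ library. Per kilobase, Rpt6R stood at 13.0 and Rpt6 at 389 CPM per kilobase. The wDah library with the most testis marker reads had the least Rpt6R of its group. Rpt6R had at least 291 counts in every head library, and the tissue source of these reads was not tested.

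**Figure D4:**
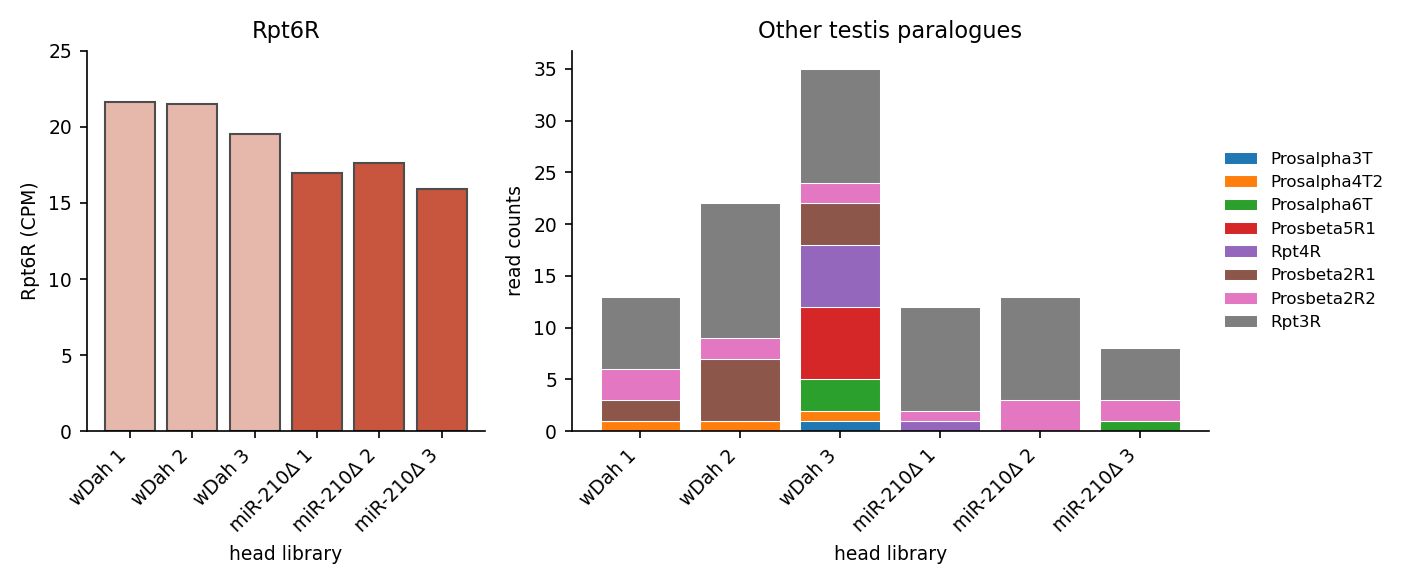
Left, Rpt6R in CPM (vertical axis, from 0) in each of the 6 head libraries; right, stacked read counts of the other testis paralogues with at least 1 count. Rpt6R lies at 19.5 to 21.6 CPM in wDah and 15.9 to 17.6 CPM in miR-210Δ heads, and the other paralogues reach their largest sum, 35 counts, in wDah replicate 3.

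Reads of Rpt6 and Rpt6R can be told apart. Rpt6 lies at chrX:21316052-21317663 on the plus strand and Rpt6R at chr3R:30582198-30583697 on the minus strand of the dm6 build. Their proteins, of 405 and 399 residues, were 88.7% identical and their coding sequences 78.2%, with no identical run longer than 26 bases. The stretch around the ATP-binding loop, which begins at residue 189 of Rpt6 and residue 184 of Rpt6R, is shown because the encoded protein is the same there. The stretches run from coding base 547 to 606 and from 532 to 591, with the bases that differ in capitals:
Rpt6: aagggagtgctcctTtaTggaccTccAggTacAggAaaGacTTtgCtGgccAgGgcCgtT
Rpt6R: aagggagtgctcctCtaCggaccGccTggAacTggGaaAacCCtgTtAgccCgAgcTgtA
The stretches differ at 16 of 60 bases and encode the same 20 residues.

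The remaining testis paralogues were at or near 0. Of the 12, Prosalpha4T1, Prosbeta4R1 and Prosbeta5R2 had 0 counts in all 6 libraries. Rpt3R, the paralogue of Rpt3, had 7, 13 and 11 counts in wDah and 10, 10 and 5 in miR-210Δ libraries (log2 fold change -0.32, standard error 0.40, adjusted p = 0.694, edgeR). Its counterpart Rpt3 had 537, 512 and 497 CPM and then 546, 541 and 525 CPM. Prosbeta2R2 had 3, 2 and 2 counts and then 1, 3 and 2.

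Prosbeta2R1, a paralogue of Prosbeta2 on the X chromosome, had 2, 6 and 4 counts in the wDah libraries and 0, 0 and 0 in the miR-210Δ libraries. With 3 counts taken as the floor of the miR-210Δ group as a whole, its pooled wDah level was 4.03-fold above that floor. This ratio leaves out the counting error of the 12 wDah counts and is no bound on the difference. Prosbeta2R1 did not enter the main test. Without a filter on low counts its adjusted p was 0.126 (edgeR), so that the difference was not called.

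Other paralogue reads fell into wDah replicate 3. All 7 counts of Prosbeta5R1, 6 of the 7 counts of Rpt4R, 3 of the 4 of Prosalpha6T and the only 1 of Prosalpha3T were found there. Prosalpha4T2 was spread evenly, with 1, 1 and 1 counts in wDah and 0 in the 3 miR-210Δ libraries. The same library held 148 counts of the testis marker loopin-1 and 73 of Mst98Ca, of which the other 5 libraries together held 5 or fewer. Within the testis marker list, 1 of 4 tested genes was called higher (can) and 1 lower (topi), neither of them following that library. The male dosage RNA roX2 had 0 counts in all 6 libraries and roX1 was at 1.42 to 2.02 CPM. Whether testis tissue entered that library was not tested.

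As a share of all proteasome subunit reads, the 12 testis paralogues made up 0.207% ± 0.00493 in wDah and 0.156% ± 0.00503 in miR-210Δ heads (SD, n = 3). Nearly all of it was Rpt6R. Without it the share was 0.00625%, 0.00973% and 0.0186% in the wDah libraries and 0.00515%, 0.00592% and 0.00404% in the miR-210Δ libraries, where 3 counts of the total are 0.00129% to 0.00160%. With Rpt6R the groups did not overlap. Without it, the lowest wDah value (replicate 1) and the highest miR-210Δ value (replicate 2) both came from 13 counts. They differ only through the subunit totals of the libraries, by less than 3 counts would make. The highest of the values without Rpt6R is again that of wDah replicate 3.

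The paralogues differed widely from their counterparts in sequence. The ATPase copies were alike, at 88.7% protein identity for Rpt6R, 82.2% for Rpt3R and 82.1% for Rpt4R. Apart from the identical Prosalpha1R, the alpha copies were at 75.1% for Prosalpha4T1 and 60.6% to 61.8% for the other 3. The beta copies overlapped with these and reached lower, from 63.2% for Prosbeta2R1 and 61.2% for Prosbeta5R1 down to 44.9% for Prosbeta2R2 and 42.8% for Prosbeta4R1.

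Because the mutants lack miR-210, the 3′ UTRs of the subunits were searched for its seed match. A miRNA pairs through its seed, bases 2 to 8, with sites mostly in 3′ UTRs and lowers the mRNA. The mature miR-210-3p, at chrX:18128270-18128292 on the plus strand, is read from the genome at its RefSeq position, with bases 2 to 8 in capitals:
miR-210-3p: cUUGUGCGugugacagcggcuau
The match to bases 2 to 8, CGCACAA, was found in 0 of the 31 body-wide subunits and in 3.54% of 9011 tested genes with an annotated 3′ UTR. The match to bases 3 to 9, ACGCACA, was found in 0 and in 4.94%. The paper places the functional seed further along the miRNA. The match to that stretch, bases 5 to 11 (ACACGCA), was searched after the other results were seen and was found in 1 of 31 subunits, Rpn5, and in 5.65% of genes. Rpn5, a lid subunit, had a log2 fold change of 0.02 (adjusted p = 0.869, edgeR). The longest annotated 3′ UTR was 118 bases in the median subunit and 319 bases in the median gene, so a shorter sequence was searched in the subunits.

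Promoters of the subunits, taken from 250 bases before the gene start to 50 bases after, were searched on both strands for motifs known from proteasome and growth genes. TATCGATA, the element bound by the factor DREF at many Drosophila housekeeping promoters, was present in 12 of 31 body-wide subunits (38.7%), in 0 of 13 copies and testis paralogues, and in 12.2% of 9288 tested genes. It occurred in all 4 classes, in Prosalpha3, Prosalpha5, Prosalpha6, Prosbeta1, Prosbeta2, Prosbeta6, Rpn3, Rpn7, Rpn9, Rpn12, Rpn13 and Rpt5. To show how the element sits in subunits of different classes, 4 of the matches are given with 10 bases on either side, 5′ to 3′ on the strand of the gene, with the element in capitals:
Prosbeta6: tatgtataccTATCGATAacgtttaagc
Rpt5: tcgctgtcacTATCGATAagcgccggcg
Rpn3: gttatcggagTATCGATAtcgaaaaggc
Rpn12: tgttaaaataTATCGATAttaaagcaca
They lie at chr3L:16610445-16610472 (minus strand), chr3R:23752820-23752847, chr2L:19051583-19051610 and chr3L:16582802-16582829 (plus strand), and the element starts 44, 46, 197 and 216 bases before the gene start. The flanking bases differ between the genes. The median log2 fold change was 0.03 in the 12 subunits with the element and 0.06 in the 18 tested ones without it, a difference that was not tested. The antioxidant response core TGACNNNGC, bound by Cap-n-collar, was present in 5 of 31 subunits (16.1%; Prosalpha2, Prosbeta3, Rpn1, Rpn7 and Rpt6) and 9.1% of tested genes, and GGTGGCAAA, the proteasome element of yeast, in 0 of 31 and 0.4%. A match is a run of letters and not a measured binding site.

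Around the proteasome, 27 genes of 5 lists were tested and 1 was called, beside 10.1% of all genes tested. Whether the lists differ from all genes was not tested. Ubi-p63E, a polyubiquitin gene, fell in miR-210Δ heads from 811.5, 795 and 793 CPM to 664, 682.5 and 629.6 CPM. The groups were far apart, the log2 fold change being -0.28 ± 0.04 (standard error; adjusted p = 0.00129, edgeR). The call held in 14 of the 15 alternatives, and not in the test against a fold of at least 1.2. Its ubiquitin repeats make 41.4% of windows of 150 bases in its transcript recur within the gene, and how the removal of reads with several positions acted on them is unknown. The other polyubiquitin gene, Ubi-p5E, was at 2783, 3013 and 2683 CPM and then 2714, 2728 and 2678 CPM (log2 fold change -0.06, adjusted p = 0.499). The ribosomal fusion genes RpL40 and RpS27A, which also encode ubiquitin, had log2 fold changes of -0.11 and -0.08 (adjusted p = 0.119 and 0.277), and that of Uba1, the ubiquitin-activating enzyme, was 0.00.

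None of the 22 tested genes of the other 4 lists was called. In the list of assembly factors and inhibitors, Pomp, the chaperone of core assembly, was at 96.3, 93.6 and 97.2 CPM in wDah and 106, 102.5 and 99.0 CPM in miR-210Δ heads (log2 fold change 0.10, standard error 0.04, adjusted p = 0.170, edgeR). Its groups did not overlap. Among the 22 genes, this also held for Usp14 and Ufd1-like, which were higher, and for Ubqn and Faf2, which were lower. All miR-210Δ libraries lay above all wDah libraries in 13.2% of all genes tested. Of the 6 tested activators and bound partners, the deubiquitinase Usp14 had a log2 fold change of 0.09 and Uch-L5, which binds Rpn13, of -0.11, both short of the threshold. The small lid subunit Sem1 had 0.15 (adjusted p = 0.199). The transcription factor Cap-n-collar (cnc), the relative of mammalian Nrf1 and Nrf2 that drives subunit genes, was at 697, 729 and 667 CPM and then 691.5, 677 and 707 CPM (log2 fold change -0.01). Among 8 shuttle and unfolding factors, the log2 fold change was 0.05 for the unfoldase TER94 and 0.12 for its cofactor Ufd1-like (adjusted p = 0.0999). The other 6, among them the shuttle Ubqn and the Ufd1-like partner Npl4 at -0.08 each, lay between -0.08 and 0.00, and the median of the 8 was -0.02. The median log2 fold changes of the 5 lists lay between -0.08, for ubiquitin and its activation, and 0.03.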

How the data were processed

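Poly(A) RNA of 6 head libraries was sequenced by the authors (single-end, 150 bases, stranded kit), trimmed with Trim Galore 0.3.7 and aligned with TopHat2 to dm6, and reads with several positions were removed with SAMtools. The deposited table holds whole-number counts of reads per gene, not normalized. Which program counted the reads, with which annotation and strand, is not given in the sources used here. The authors' DESeq2 columns (mean, fold change, statistic, p-values) and the small RNA counts were not used, apart from the gene symbols.

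Counts were tested in R 4.3.3 with edgeR 4.0.16 (expression filter, TMM, quasi-likelihood test, Benjamini-Hochberg adjustment over 9470 genes, threshold 0.05); DESeq2 1.42.0 and limma 3.58.1 were alternatives. Replicates varied by 5.54% (common dispersion 0.00307). The procedure was tested on simulated counts, with 8 false calls among 9417 genes. Intervals cover 95%. Sequences came from the RefSeq dm6 genome with the Ensembl annotation (Python 3.11.15, Biopython 1.88), and 15186 of 15406 identifiers matched. Of the 44 members, 32 passed the filter (30 body-wide subunits, Rpt6R and Rpt3R). Members named are those called, the highest and lowest in level and fold change of each class, paralogues with at least 10 counts, and called genes of 5 related lists; others were named after their values were seen. Members, lists and rules were chosen with earlier results of these data known. The lists held 12 symbols without a row, which were left out. Floors cover counting error only, and the ratio given for Prosbeta2R1 leaves out the error of its wDah counts.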

Additional observations from a re-analysis of the deposited data

How the results depend on the processing

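The 0 body-wide subunits called and the lower Rpt6R were recomputed under 15 alternatives. With library totals in place of TMM scaling, 1200 genes were called, 2 subunits were called higher (Rpn11, log2 fold change 0.17, adjusted p = 0.0387; Prosalpha6, 0.16, adjusted p = 0.0309), 0 were called lower, and the median over body-wide subunits was 0.11, while that over all genes was 0.06. For a fold of at least 1.2, 269 genes and 0 subunits were called, since this test asks for more than a change from 0 (Rpt6R, adjusted p = 1). Leaving out 1 library in turn gave 594 to 1278 called genes, 0 subunits called higher, 0 to 1 called lower, and a body-wide median of 0.02 to 0.08; the lowest count, 594, was without miR-210Δ replicate 1, and 620 were called without miR-210Δ replicate 2. Here 7 of the 33 genes followed individually changed sign without wDah replicate 3, and none of these was called. The testis paralogue share stayed between 0.205% and 0.211% in wDah and between 0.154% and 0.159% in miR-210Δ heads. Same-numbered libraries did not deviate together (correlations of -0.031, 0.031 and 0.075), and with a replicate block 855 genes were called, 0 subunits higher and 1 lower (Rpt6R, adjusted p = 0.0218). DESeq2, limma-voom, RLE and upper quartile scaling, no filter and a minimum of 50 counts in 3 libraries left the calls of subunits as they were. Of the paralogues, 8 had fewer than 10 counts in all.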
